A study of Mus musculus with 16 samples.

Results

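The 8 genes described here make, branch and break down glycogen or bring a phosphatase to it: Gys1, Gys2, Ugp2, Gbe1, Pygl, Pygb, Ppp1r3b and Ppp1r3c. They were chosen by name, as the listed rows of a count table of 24454 genes, and all 8 were among the 16682 genes that passed a filter on low counts. They were listed with results of these same libraries in view, so their differences between groups are given as a description with standard errors. Counts of calls among them stand only beside the processing alternatives, also as a description. Polyadenylated RNA of gonadal fat from male mice of the inbred C57BL/6J strain, which were lean, was sequenced in 16 libraries. The mice ate standard chow and their age is given as 16 weeks. They had either a subdiaphragmatic vagotomy (sDVX), in which the vagus nerve is cut below the diaphragm, or sham surgery, and 4 weeks later an infusion into the brain ventricles for 2 weeks from implanted pumps, with feeding kept isocaloric. The infusion was SHU9119, a peptide that blocks melanocortin receptors, at 1 nmol per day, or vehicle. The 4 groups of 4 libraries are named VX_SHU (sDVX and SHU9119), VX_Veh (sDVX and vehicle), Sham_SHU (sham surgery and SHU9119) and Sham_Veh (sham surgery and vehicle). The labels do not say that the libraries of a group came from different mice, so any p-value measures the spread between these libraries. In RNA of whole tissue, fewer cells of a type and less RNA per cell cannot be told apart.

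Glycogen is the branched glucose polymer in which cells store sugar. UDP-glucose, made by the pyrophosphorylase Ugp2, is added to the chains by glycogen synthase, of which Gys1 is the isoform of muscle and most tissues and Gys2 the isoform of liver. The branching enzyme Gbe1 adds branch points, and glycogen phosphorylase releases glucose-1-phosphate again, with Pygl as the liver and Pygb as the brain isoform. Ppp1r3b and Ppp1r3c are targeting subunits that hold protein phosphatase 1 on the glycogen particle, where it activates the synthase and inactivates the phosphorylase. Fat cells hold little glycogen, and it turns over with feeding and insulin.

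On the GRCm38 build, Gys2 lies on the minus strand of chromosome 6 from 142422613 to 142473109 and Gys1 on the plus strand of chromosome 7 from 45434844 to 45456619. Gbe1 lies on chromosome 16 from 70313949 to 70569716 and Ugp2 on chromosome 11 from 21321138 to 21371201. Pygl lies on chromosome 12 from 70190811 to 70231488 and Pygb on chromosome 2 from 150786735 to 150831758. Ppp1r3b lies on chromosome 8 from 35375739 to 35388139 and Ppp1r3c on chromosome 19 from 36731731 to 36736653. The coding sequences of Gys2 and Gys1 were 69.3% identical over 2105 aligned bases. Their longest stretch in common, shown because a read inside it cannot be given to one of the isoforms, was 29 bases:
Gys2 and Gys1 shared run: aatttcaacgtggaaaccctgaagggcca
Of the 2088 words of 25 bases in the coding sequence of Gys2, 5 were found in that of Gys1 as well, so the isoforms differ in nearly all words of that length. Pygl and Pygb were 75.6% identical with a longest shared run of 29 bases, and Ppp1r3b and Ppp1r3c were 60.8% identical with a longest run of 16. Gys1 shared 310 exon bases with Ruvbl2 and Ugp2 shared 78 with the gene model Gm12043, each on the opposite strand, and without a stated strand setting these reads cannot be told apart.

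The RefSeq promoters used here (GRCm38.p6) cover 6 of the 8 genes. The 250 bases before the start are shown for Gbe1 and Gys1, whose log2 differences of Sham_SHU over Sham_Veh were 0.99 ± 0.274 and 0.10 ± 0.194 (SE). Capitals mark the CCAAT box, searched as CCAAT on both strands, so that ATTGG is the same motif on the other strand.
Gbe1 promoter, chr16:70313699-70313948, plus strand: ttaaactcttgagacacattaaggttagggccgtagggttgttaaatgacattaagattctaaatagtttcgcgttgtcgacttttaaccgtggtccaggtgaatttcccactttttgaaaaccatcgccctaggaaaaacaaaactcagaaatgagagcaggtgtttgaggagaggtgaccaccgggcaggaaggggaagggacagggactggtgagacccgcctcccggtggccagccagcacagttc
Gys1 promoter, chr7:45434589-45434838, plus strand: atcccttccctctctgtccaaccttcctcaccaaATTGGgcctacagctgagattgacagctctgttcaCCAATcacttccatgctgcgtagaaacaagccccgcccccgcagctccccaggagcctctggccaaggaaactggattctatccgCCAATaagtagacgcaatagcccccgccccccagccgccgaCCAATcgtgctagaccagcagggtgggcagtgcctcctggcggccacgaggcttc
The Gys1 window held 4 such motifs and the Gbe1 window 0. Among 7 windows of the 6 genes (Ugp2 has 2 starts), Gys1, Ugp2 and Ppp1r3c held CCAAT, against 33.8% of 32851 windows of the same length. The E-box CACGTG was found before Ppp1r3c, against 6.02% of windows. The sterol regulatory element TCACNCCAC and the FOXO motif TTGTTTAC, which 1.05% and 1.07% of windows held, were in 0 of the 7. These matches describe letters and not binding.

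Library totals ran from 20425295 to 30889052 counts. The fat cell hormone gene Adipoq stood at 1355 to 3714 CPM (read counts scaled to library size), as fits the tissue label. For Adipoq, the other marker genes and all marker sums, CPM were scaled to the library total alone. For the glycogen genes, CPM were scaled with edgeR's TMM factors as well, which ran from 0.849 to 1.13. Marker CPM and glycogen gene CPM are therefore not on exactly the same scale. Transcripts of neighbouring tissue differed between libraries of the same group. The summed level of 12 epididymis markers ran from 3.64 to 10485 CPM, that of 10 testis and sperm markers from 8.60 to 2673, that of 10 markers of ciliated epithelium from 9.16 to 1047, and that of 8 liver markers from 24.9 to 3078.

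Per kilobase of transcript, Pygb was the most abundant of the 8 genes, at a mean level of 98.6 CPM per kilobase over the 16 libraries. It was followed by Pygl at 95.4, Ugp2 at 68.1, Gbe1 at 55.1 and Gys1 at 47.3 CPM per kilobase. Ppp1r3c (12.2), Gys2 (9.56) and Ppp1r3b (5.27) had the lowest mean levels per kilobase. The order was not the same in every group. In Sham_SHU libraries Pygl led at 142 ± 45.3 CPM per kilobase (SD, n = 4) with Pygb next at 96.7 ± 5.49, whereas in the other 3 groups Pygb led. Likewise Gys2 stood above Ppp1r3c in Sham_SHU, at 19.9 ± 9.02 and 15.2 ± 5.79 CPM per kilobase, and below it in the other 3 groups. In each of these neighbouring pairs in Sham_SHU the ranges of the 2 genes overlapped. The ranges of Pygb and Pygl also overlapped in the other 3 groups, and those of Ppp1r3c and Gys2 also overlapped in VX_SHU. Gys2 and Ppp1r3b also varied most between libraries: the highest library held 14.4 times the CPM of the lowest for Gys2 and 10.2 times for Ppp1r3b, against 4.49 for Pygl, 2.94 for Gbe1, 2.86 for Ppp1r3c, 2.21 for Gys1, 1.85 for Pygb and 1.60 for Ugp2.

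**Figure D1:**
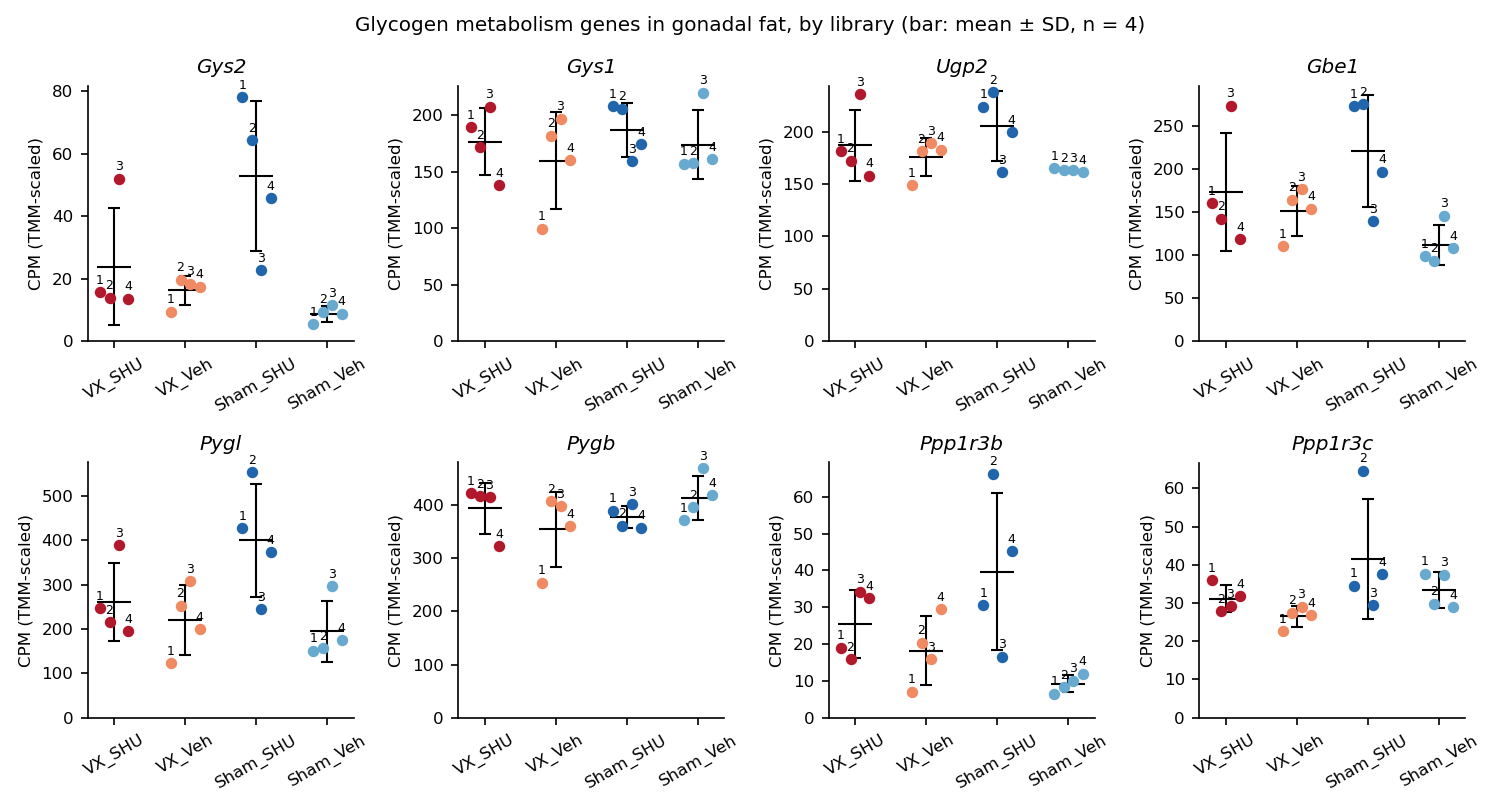
Level of each of the 8 genes in CPM (y axis, linear from 0) in the VX_SHU, VX_Veh, Sham_SHU and Sham_Veh libraries; each point is a library with its replicate number, and bars give the mean ± SD of 4 libraries. Gys2 reached 22.7 to 78.0 CPM in Sham_SHU and 5.42 to 11.6 CPM in Sham_Veh, while Pygb spanned 358 to 402 and 372 to 470 CPM in the same groups.

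Gys2, the liver isoform of glycogen synthase, showed the widest difference between groups. After sDVX, it stood at 15.7, 14.0, 52.0 and 13.6 CPM in the 4 VX_SHU libraries, against 9.44, 19.7, 18.3 and 17.4 CPM in VX_Veh. After sham surgery it stood at 78.0, 64.4, 22.7 and 45.8 CPM in Sham_SHU, against 5.42, 9.47, 11.6 and 8.83 CPM in Sham_Veh. Every Sham_SHU library was above every Sham_Veh library, whereas the sDVX groups overlapped and only VX_SHU3 lay above the VX_Veh range. The group means were 23.8 ± 18.8 CPM in VX_SHU, 16.2 ± 4.61 in VX_Veh, 52.8 ± 24.0 in Sham_SHU and 8.82 ± 2.55 in Sham_Veh (SD, n = 4 each). These levels rest on 618 to 1645 reads per library in Sham_SHU and 142 to 280 in Sham_Veh. The fitted log2 difference of SHU9119 over vehicle was 2.58 ± 0.494 (SE) in sham mice, a fold of 5.98, and 0.55 ± 0.468 in sDVX mice. Leaving out any one library kept the sham value between 2.32 and 2.83. In sDVX mice the sign depended on VX_SHU3, without which the value was −0.17.

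Gys1, the isoform of muscle and most tissues, averaged 176 ± 29.6 CPM in VX_SHU, 159 ± 42.7 in VX_Veh, 187 ± 24.1 in Sham_SHU and 174 ± 30.6 in Sham_Veh, and the groups of each pair overlapped. The log2 difference of SHU9119 over vehicle was 0.10 ± 0.194 in sham mice and 0.14 ± 0.194 in sDVX mice, the second turning to −0.01 without VX_Veh1. As a share of both synthases per kilobase, Gys2 made up 14.6% ± 7.52 in VX_SHU, 12.3% ± 0.898 in VX_Veh, 26.9% ± 7.56 in Sham_SHU and 6.52% ± 1.36 in Sham_Veh (SD, n = 4). The share is a description that rests on the same reads as the levels. In Sham_SHU it was 34.2%, 30.2%, 16.5% and 26.7% in libraries 1 to 4, all above the 4.56% to 7.67% of Sham_Veh. With all annotated exons taken as gene length, a choice added after the data were seen, the shares were 18.0%, 15.4%, 32.3% and 8.32% in VX_SHU, VX_Veh, Sham_SHU and Sham_Veh. Gys1 transcripts thus remained the majority of synthase transcripts in every library.

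**Figure D2:**
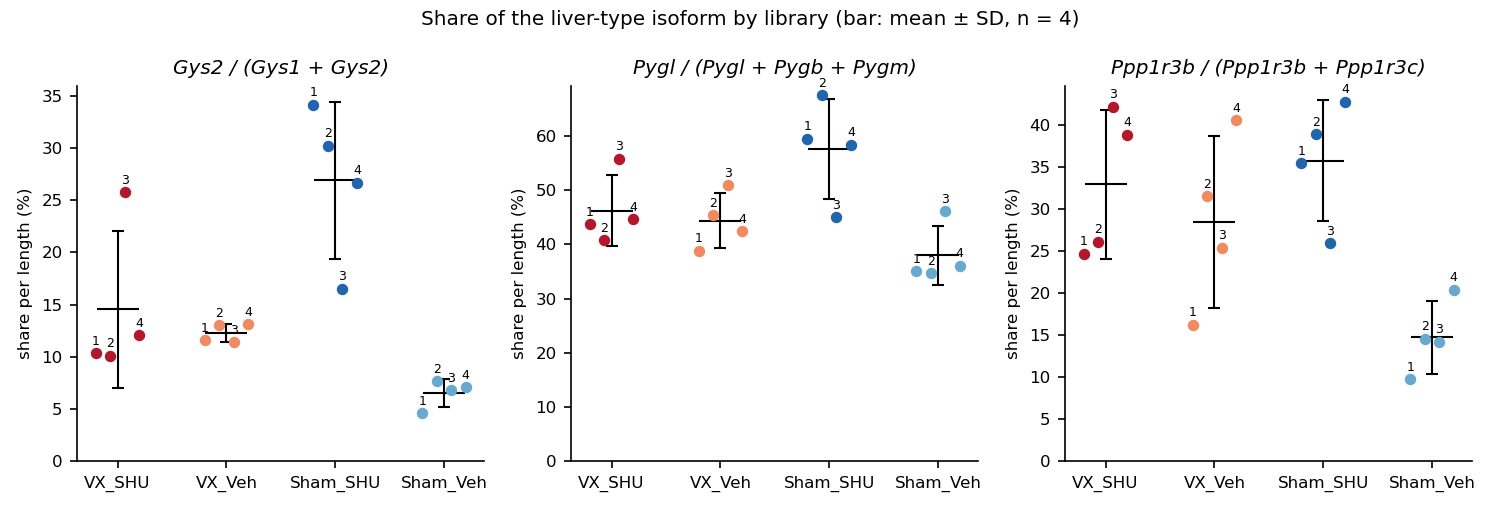
Share, in percent per kilobase of transcript (y axis, linear from 0), of Gys2 among both synthases, of Pygl among the 3 phosphorylases Pygl, Pygb and Pygm, and of Ppp1r3b among the targeting subunits Ppp1r3b and Ppp1r3c; points are libraries with their replicate number and bars the mean ± SD of 4. Each share was lowest in Sham_Veh, at means of 6.52%, 38.0% and 14.7%, and highest in Sham_SHU, at 26.9%, 57.6% and 35.8%.

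Of the genes that supply and shape the chains, Gbe1, the branching enzyme, showed a pattern like that of Gys2. After sDVX it stood at 161, 142, 273 and 119 CPM in VX_SHU, against 110, 164, 176 and 154 CPM in VX_Veh. After sham surgery it stood at 273, 275, 139 and 197 CPM in Sham_SHU, against 98.6, 93.6, 146 and 108 CPM in Sham_Veh. The sham groups overlapped only through Sham_SHU3, which lay below Sham_Veh3, and in the sDVX groups VX_SHU3 was again the one library above the range of VX_Veh. The log2 difference of SHU9119 over vehicle was 0.99 ± 0.274 (SE) in sham mice and 0.20 ± 0.272 in sDVX mice, the second being −0.11 without VX_SHU3. Ugp2, which makes UDP-glucose, averaged 187 ± 33.9 CPM in VX_SHU, 175 ± 18.0 in VX_Veh, 205 ± 33.5 in Sham_SHU and 163 ± 1.68 in Sham_Veh (SD, n = 4). Its 4 Sham_Veh libraries lay within 161 to 165 CPM, and 3 of the 4 Sham_SHU libraries lay above them, at 199 to 238 CPM. The log2 difference was 0.33 ± 0.132 in sham mice and 0.09 ± 0.132 in sDVX mice, the second being −0.04 without VX_SHU3.

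Of the phosphorylases, which release glucose from glycogen, the liver isoform Pygl had larger log2 differences for SHU9119 than the brain isoform Pygb. Pygl stood at 247, 215, 389 and 195 CPM in VX_SHU, against 124, 253, 308 and 199 CPM in VX_Veh. After sham surgery it stood at 427, 554, 245 and 374 CPM in Sham_SHU, against 151, 156, 297 and 175 CPM in Sham_Veh. The sham groups overlapped because the lowest Sham_SHU library, number 3, lay below the highest Sham_Veh library, also number 3. The log2 difference of Pygl for SHU9119 over vehicle was 1.04 ± 0.331 (SE) in sham mice and 0.24 ± 0.327 in sDVX mice, the second being −0.01 without VX_SHU3. Pygb averaged 395 ± 48.0 CPM in VX_SHU, 355 ± 70.4 in VX_Veh, 378 ± 21.5 in Sham_SHU and 415 ± 41.7 in Sham_Veh, with log2 differences of −0.13 ± 0.137 in sham mice and 0.15 ± 0.137 in sDVX mice. Pygl made up 46.2% ± 6.59 of phosphorylase transcripts per kilobase in VX_SHU, 44.4% ± 5.12 in VX_Veh, 57.6% ± 9.31 in Sham_SHU and 38.0% ± 5.46 in Sham_Veh. Sham_SHU1 and Sham_SHU2 held the highest levels of both Gys2 and Pygl among the 16 libraries.

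Of the targeting subunits of protein phosphatase 1, Ppp1r3b, which is abundant in liver, had its highest group mean in Sham_SHU and its lowest in Sham_Veh, as Gys2 did. After sDVX it stood at 19.0, 15.8, 34.2 and 32.4 CPM in VX_SHU, against 7.05, 20.4, 15.9 and 29.5 CPM in VX_Veh. After sham surgery it stood at 30.5, 66.3, 16.6 and 45.1 CPM in Sham_SHU, against 6.53, 8.19, 9.995 and 11.9 CPM in Sham_Veh. The sham groups did not overlap and the sDVX groups did. The log2 difference of SHU9119 over vehicle was 2.11 ± 0.464 (SE) in sham mice, a fold of 4.33, and 0.48 ± 0.446 in sDVX mice. Without Sham_SHU2, the highest library, the sham value was 1.76. Ppp1r3c, the subunit also called protein targeting to glycogen, averaged 31.2 ± 3.63 CPM in VX_SHU, 26.5 ± 2.74 in VX_Veh, 41.5 ± 15.8 in Sham_SHU and 33.4 ± 4.73 in Sham_Veh. Its log2 difference of 0.31 ± 0.200 in sham mice rested on Sham_SHU2, at 64.7 CPM, and was 0.04 without that library. In sDVX mice it was 0.23 ± 0.200. Ppp1r3b made up 33.0% ± 8.86 of the transcripts of these 2 subunits per kilobase in VX_SHU, 28.4% ± 10.2 in VX_Veh, 35.8% ± 7.21 in Sham_SHU and 14.7% ± 4.37 in Sham_Veh.

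**Figure D3:**
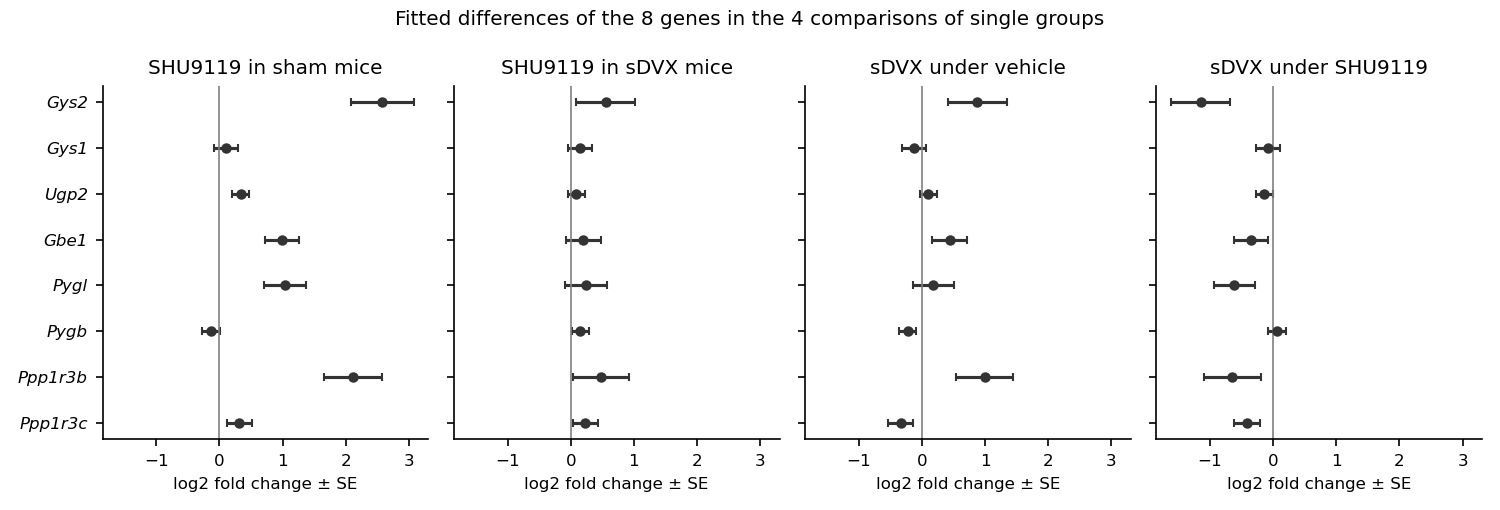
Fitted log2 fold change ± SE (x axis) of the 8 genes (y axis) for SHU9119 over vehicle in sham mice and in sDVX mice and for sDVX over sham under vehicle and under SHU9119, from 1 edgeR model of the 16 libraries. In sham mice the values for SHU9119 ran from −0.13 for Pygb to 2.58 for Gys2, and in sDVX mice from 0.09 for Ugp2 to 0.55 for Gys2.

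In sham mice, SHU9119 over vehicle gave positive log2 differences for 7 of the 8 genes, against 7207 of all 16682 genes tested. The median of the 8 was 0.66, against −0.06 over all genes. Gys2 and Ppp1r3b were higher with no overlap of the groups, as were 5.6% of all genes, and 0 of the 8 were lower without overlap, as were 4.82%.

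In sDVX mice, all 8 log2 differences of SHU9119 over vehicle were positive and small, as against 7816 positive ones among all 16682 genes. The median of the 8 was 0.22, against −0.02 over all genes. For all 8 genes the groups overlapped, and they did not for 2.93% of all genes higher and 2.03% lower. The interaction, the SHU9119 difference in sDVX mice minus that in sham mice, was −2.03 ± 0.666 (SE) for Gys2 and −1.64 ± 0.634 for Ppp1r3b on the log2 scale. It was −0.79 ± 0.464 for Pygl, −0.79 ± 0.385 for Gbe1 and −0.24 ± 0.187 for Ugp2. Values for Gys1 (0.04 ± 0.275), Ppp1r3c (−0.08 ± 0.283) and Pygb (0.29 ± 0.194) lay nearer to 0 or above it. Leaving out any one library kept the Gys2 value between −2.75 (without VX_SHU3) and −1.75 (without Sham_SHU1). The Ppp1r3b value stayed between −1.91 (without VX_Veh1) and −1.27 (without Sham_SHU2).

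Under vehicle, sDVX over sham gave log2 differences of 0.99 ± 0.451 (SE) for Ppp1r3b, 0.88 ± 0.472 for Gys2 and 0.44 ± 0.272 for Gbe1. Pygl (0.18 ± 0.327), Ugp2 (0.10 ± 0.132), Gys1 (−0.12 ± 0.194), Pygb (−0.22 ± 0.137) and Ppp1r3c (−0.34 ± 0.201) were closer to 0. VX_Veh1 held the lowest value of its group for all 8 genes, and it also had the lowest adipocyte marker sum (10728 CPM) and the highest ciliated epithelium sum (1047 CPM) of the 16 libraries. Their part in the result was not tested. Without VX_Veh1 the values were 1.28 for Ppp1r3b, 1.09 for Gys2 and 0.59 for Gbe1, and Gys1 turned to 0.07. The lowest values without a library were 0.66 for Ppp1r3b (VX_Veh4), 0.71 for Gys2 (Sham_Veh1) and 0.36 for Gbe1 (VX_Veh3). Pygl turned to −0.02 without VX_Veh3. The groups overlapped for all 8 genes, while 0.935% of all genes were higher and 2.16% lower without overlap. Under SHU9119, sDVX over sham gave −1.15 ± 0.471 for Gys2, −0.64 ± 0.446 for Ppp1r3b, −0.61 ± 0.328 for Pygl, −0.41 ± 0.201 for Ppp1r3c and −0.35 ± 0.272 for Gbe1. The values for Ugp2 (−0.14 ± 0.132), Gys1 (−0.08 ± 0.194) and Pygb (0.06 ± 0.137) lay nearer to 0. The groups overlapped for all 8 genes, while 3.2% of all genes were higher and 2.44% lower without overlap. Without VX_SHU3 the Gys2 value was −1.87, and without Sham_SHU1 it was −0.87. The Ppp1r3b value was −0.28 and the Ppp1r3c value −0.12 without Sham_SHU2. These comparisons share groups with the ones above, so their values are not independent of them.

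Averaged over both surgeries, SHU9119 over vehicle gave a log2 difference of 1.57 ± 0.337 (SE) for Gys2, a fold of 2.96, and of 1.30 ± 0.320 for Ppp1r3b. Pygl (0.64 ± 0.232), Gbe1 (0.59 ± 0.193), Ppp1r3c (0.27 ± 0.142) and Ugp2 (0.21 ± 0.0933) followed, with Gys1 at 0.12 ± 0.137 and Pygb at 0.01 ± 0.0970. The Gys2 value stayed between 1.21 and 1.70 when any one library was left out. Averaged over both infusions, sDVX over sham gave −0.38 ± 0.142 for Ppp1r3c and values between −0.22 (Pygl) and 0.17 (Ppp1r3b) for the other 7 genes.

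Within groups the genes tended to be high or low in the same libraries. Sham_SHU3 was the lowest of its group for 7 of the 8 genes, all but Pygb, for which it was the highest. VX_SHU3 was the highest of its group for 6 of the 8, all but Pygb and Ppp1r3c, and VX_SHU4 the lowest for 6, all but Ppp1r3b and Ppp1r3c. These libraries also differed in marker levels. The epididymis sum was 1653 CPM in Sham_SHU3, 6.07 in VX_SHU3 and 10485 in VX_SHU4, and the testis and sperm sum was 1270 CPM in Sham_SHU3. The ciliated epithelium sum was 150 CPM in Sham_SHU3, against 12.9 to 28.1 in the other 3 Sham_SHU libraries. In VX_SHU3 the ciliated sum was 9.16 CPM, the lowest of all 16. It was 22.9 CPM in VX_SHU4, near the 23.8 CPM of VX_SHU1, and 168 CPM in VX_SHU2. Over the groups it ranged from 9.16 to 168 CPM in VX_SHU, 17.0 to 1047 in VX_Veh, 12.9 to 150 in Sham_SHU and 12.1 to 375 in Sham_Veh, and the median log2 difference of its 10 genes for SHU9119 over vehicle was −2.34 in sham mice and −2.72 in sDVX mice. The 8 libraries with ciliated sums of 9.16 to 28.1 CPM held 11.6 to 78.0 CPM of Gys2, and the other 8, with sums of 150 to 1047 CPM, held 5.42 to 22.7 CPM. With the ciliated and epididymis sums as covariates in the same edgeR model, the SHU9119 difference was 1.90 for Gys2, 1.52 for Ppp1r3b, 0.67 for Pygl and 0.64 for Gbe1 in sham mice. In sDVX mice it was then −0.26, −0.03, −0.25 and −0.26 for these genes, and averaged over surgeries it was 0.82 for Gys2, against 1.57 without the covariates. Because the ciliated markers themselves differed between the infusions, SHU9119 and ciliated content cannot be told apart by this fit. The part of ciliated content in the glycogen genes was not tested. A further fit left out the 6 libraries whose epididymis or testis sum reached 500 CPM (Sham_Veh3, Sham_Veh4, Sham_SHU3, Sham_SHU4, VX_Veh4 and VX_SHU4), which left 10. The sham difference then rested on Sham_SHU1 and Sham_SHU2 against Sham_Veh1 and Sham_Veh2. It was 3.27 for Gys2, 2.72 for Ppp1r3b, 1.68 for Pygl and 1.52 for Gbe1. The libraries left out included the lowest Sham_SHU library for Gys2, Sham_SHU3, and the highest Sham_Veh library, Sham_Veh3.

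**Figure D4:**
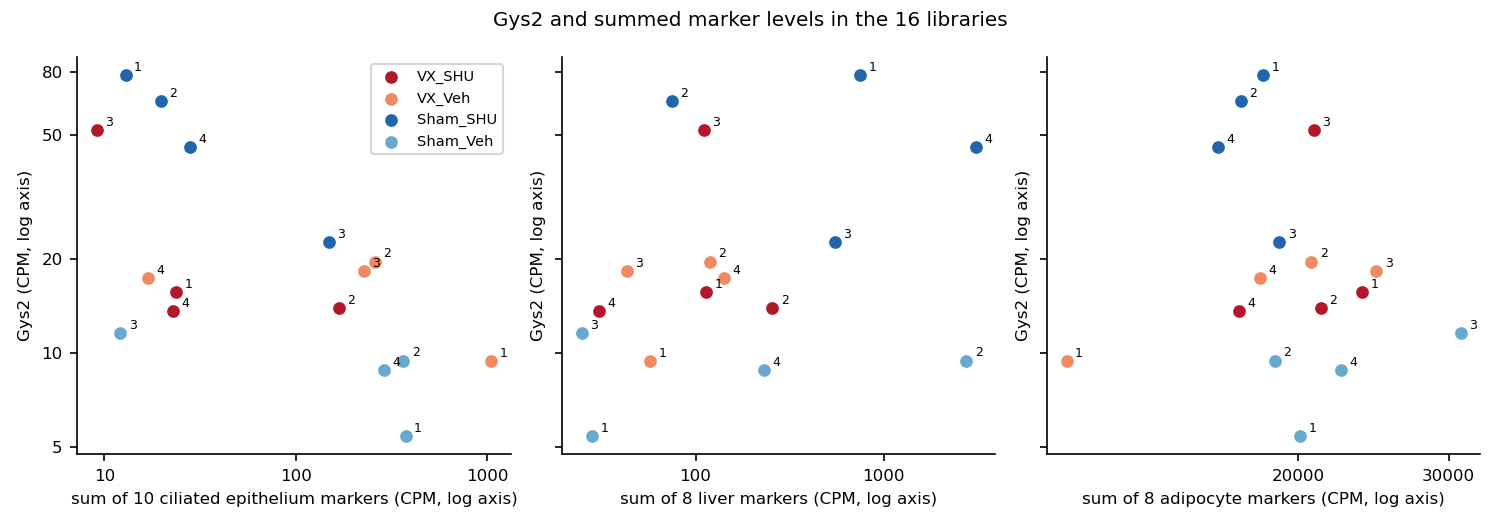
Gys2 level (y axis, CPM, log axis) against the summed CPM (x axes, log axes) of 10 ciliated epithelium, 8 liver and 8 adipocyte markers in the 16 libraries, coloured by group and marked with the replicate number. Sham_SHU3, the lowest Sham_SHU library for Gys2 at 22.7 CPM, had the highest ciliated sum of its group at 150 CPM, and the libraries with the 2 highest liver sums, Sham_SHU4 (3078 CPM) and Sham_Veh2 (2748 CPM), held 45.8 and 9.47 CPM of Gys2.

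Gys2, Pygl and Ppp1r3b are named for or abundant in liver, so liver markers were set beside them. The sum of the 8 liver markers, led by the albumin gene Alb, ranged from 30.8 to 256 CPM in VX_SHU, 43.2 to 142 in VX_Veh, 75.2 to 3078 in Sham_SHU and 24.9 to 2748 in Sham_Veh, and none of its genes was at 0 in any library. The median log2 difference of the list for SHU9119 over vehicle was 0.72 in sham mice. Sham_SHU4, with the highest liver sum (3078 CPM), held 45.8 CPM of Gys2 and 45.1 CPM of Ppp1r3b. Sham_Veh2, with the next highest (2748 CPM), held 9.47 CPM of Gys2 and 8.19 CPM of Ppp1r3b. The lowest liver sum of the Sham_SHU libraries was that of Sham_SHU2, at 75.2 CPM, which held 64.4 CPM of Gys2 and 66.3 CPM of Ppp1r3b. The 10 striated muscle markers summed to 8.14 to 56.9 CPM, and Ckm, the muscle creatine kinase, was at 0 in 3 libraries and Myh4, a fast myosin, in 11. The 8 adipocyte markers summed to 17066 to 23780 CPM in VX_SHU, 10728 to 24691 in VX_Veh, 16125 to 19022 in Sham_SHU and 18792 to 30979 in Sham_Veh, and their median log2 difference for SHU9119 over vehicle was 0.21 in sham mice. The 6 mesothelium markers summed to 70.8 to 95.9 CPM in VX_SHU, 96.1 to 158 in VX_Veh, 25.1 to 112 in Sham_SHU and 86.9 to 162 in Sham_Veh, and the 6 macrophage markers to 457 to 875 CPM over all 16 libraries. The part of liver, muscle, adipocyte, mesothelium and macrophage content in the glycogen genes was not tested.

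Beyond the 8 genes, 25 other genes of glycogen metabolism were listed by role, of which 24 passed the filter and Ppp1r3g, with 0 to 3 counts per library, did not. For SHU9119 averaged over both surgeries, an adjusted p under 0.05 by the edgeR quasi-likelihood test was reached by 1 of the 24, against 1.87% of all genes, and their median log2 difference was 0.01 against −0.03 over all genes. This gene was Ppp1r3d, another targeting subunit of protein phosphatase 1. It stood at 17.3, 17.0, 22.4 and 13.9 CPM in VX_SHU, against 8.75, 14.9, 11.7 and 12.1 CPM in VX_Veh. After sham surgery it stood at 25.8, 26.2, 18.1 and 26.4 CPM in Sham_SHU, against 13.8, 14.1, 12.6 and 14.3 CPM in Sham_Veh, with no overlap of the sham groups. Averaged over surgeries, Ppp1r3d rose with a log2 difference of 0.69 ± 0.122 (SE; edgeR adjusted p = 0.0301 over all genes). The call was lost without any one of Sham_Veh1, Sham_Veh2, Sham_Veh3, Sham_SHU1, Sham_SHU2, Sham_SHU4, VX_Veh3, VX_SHU1 or VX_SHU3, and with the marker sums as covariates. The subunit Ppp1r3e had a log2 difference of 0.39 ± 0.0971 and did not pass (edgeR adjusted p = 0.0548).

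At other steps of the pathway no gene passed the test. The glycogenin gene Gyg (Gyg1), whose protein primes new glycogen, had a log2 difference of 0.28 ± 0.151 (edgeR adjusted p = 0.244), and Pgm1, which converts glucose-1-phosphate and glucose-6-phosphate into each other, one of 0.27 ± 0.131 (edgeR adjusted p = 0.189). Pygm, the muscle phosphorylase, had one of −0.03 ± 0.139 (edgeR adjusted p = 0.894). The largest negative values were those of the muscle targeting subunit Ppp1r3a, at −1.05 ± 0.568 (edgeR adjusted p = 0.238) and at most 1.61 CPM in a library, and of Stbd1, a glycogen-binding protein, at −1.03 ± 0.351 (edgeR adjusted p = 0.0928). Stbd1 was highest in VX_Veh1, at 52.8 CPM, the library with the highest ciliated epithelium sum, and its part in the result was not tested. In sham mice alone edgeR called 0 of the 24 genes and 0.114% of all genes. An unadjusted edgeR p under 0.05 was reached by 7 of the 24, against 3273 of all 16682 genes. DESeq2 called 4 of the 24 and 1178 of all genes, and limma-voom called 9 and 3874. In sDVX mice edgeR called 0.00599% of all genes, and edgeR, DESeq2 and limma-voom called 0 of the 24. An unadjusted edgeR p under 0.05 was reached there by 3 of the 24, against 1942 of all 16682 genes. For sDVX over sham under vehicle and under SHU9119, the interaction and sDVX averaged over infusions edgeR called 0% of all genes. In these comparisons edgeR and DESeq2 called 0 of the 24. An unadjusted edgeR p under 0.05 was reached by 2, 2, 2 and 3 of the 24, against 1335, 1778, 794 and 2666 of all 16682 genes. Of the 24, limma-voom called 2 under SHU9119, against 779 of all genes, and 0 in the other 3 comparisons.

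**Figure D5:**
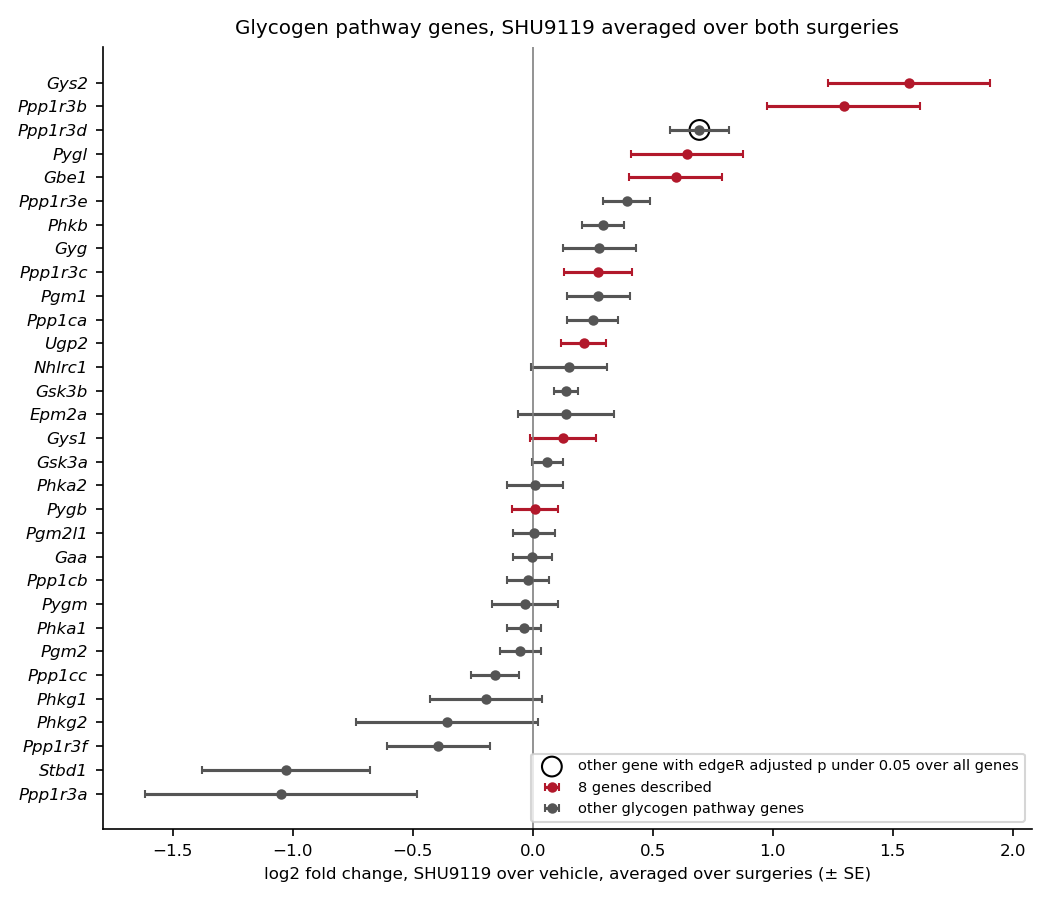
Log2 fold change ± SE (x axis) for SHU9119 over vehicle averaged over both surgeries, for the 8 genes (red) and 23 of the 24 other glycogen pathway genes that passed the filter (grey), ordered by value; the open circle marks the grey gene with an edgeR adjusted p under 0.05 over all genes, Ppp1r3d. The values run from −1.05 for Ppp1r3a to 1.57 for Gys2.

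The genes whose log2 CPM followed that of Gys2 most closely over the 16 libraries, among 11673 genes with a mean of at least 5 CPM, were Idh3a, a subunit of mitochondrial isocitrate dehydrogenase (Pearson r = 0.955), Ppp2r5b, a regulatory subunit of protein phosphatase 2A (0.955), Ergic1, a protein of the early secretory pathway (0.948), Cycs, cytochrome c (0.947), and Lactb2, a mitochondrial ribonuclease (0.945). Of the glycogen genes, Gbe1 came 7th with an r of 0.943, Pygl 139th (0.896), Ugp2 197th (0.883) and Ppp1r3b 385th (0.848). Gys1 (0.539), Ppp1r3c (0.413) and Pygb (0.081) ranked 2800th, 3594th and 5593rd. These correlations describe libraries that share groups and marker content, and they carry no test. Idh3a averaged 205 ± 57.7 CPM in VX_SHU, 185 ± 24.1 in VX_Veh, 294 ± 69.3 in Sham_SHU and 159 ± 5.52 in Sham_Veh, the same order of groups as Gys2.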

How the data were processed

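Polyadenylated RNA of gonadal fat was sequenced in 16 libraries, 4 per group. The values are raw counts per gene, deposited by the authors under NCBI gene numbers. Per the submitters' processing notes the authors used bcl2fastq, TopHat, edgeR and the mm10 build. Versions, counting tool, annotation and strand are not given in the sources used. Of 24454 genes, 24374 were matched by gene number to symbols of a RefSeq gene annotation, where Gyg1 stands as Gyg. Gene positions, transcript lengths and coding sequences were taken from GENCODE M21 on GRCm38. Lengths are those of the transcript with the longest coding sequence.

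The 8 genes, the gene lists and the tests were chosen with earlier results of these data known. The rule named all 8 genes. Of the other pathway genes it named each called in any comparison, the 2 largest differences in each direction for SHU9119 averaged over surgeries, and Gyg1, Pygm and Pgm1. Results for 1 further gene are not reported here. It also named the 5 genes most like Gys2.

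In R 4.3.3 with edgeR 4.0.16, 16682 genes passed filterByExpr by group, were scaled by TMM and were fitted with a robust quasi-likelihood model of 1 mean per group over all 16 libraries (12 residual degrees of freedom). The 7 comparisons were adjusted by Benjamini-Hochberg over all genes, with 0.05 as the threshold. Standard errors were obtained by dividing each log2 fold change by the root of F, and log2 CPM had a prior count of 2. The common biological coefficient of variation was 50.0%. All 24 replicate pairs differed by more than sampling noise (chi-square 11.8 to 203.9 times its degrees of freedom). Totals of 20425295 to 30889052 counts set the precision. The pipeline was tested on simulated data. Alternatives were DESeq2 size factors, no filter, DESeq2 1.42.0 and limma-voom with sample weights (limma 3.58.1), called limma-voom in the text. Further alternatives were the replicate number as a block, only the 2 groups compared and marker sums as covariates. Fits without 6 libraries with epididymis or testis markers and leaving out each library were alternatives too.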

Additional observations from a re-analysis of the deposited data

Results flagged for a closer look

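Of 32 sets of 4 libraries (8 genes in 4 groups), 4 held a library that stood apart from the other 3 by Dixon's criterion for 4 values, where chance gives about 1 in 20. Gys2 was 52.0 CPM in VX_SHU3, against 13.6 to 15.7 CPM in the other VX_SHU libraries. Pygb was 323 CPM in VX_SHU4, the lowest of its group. Gys1 was 220 CPM and Pygl 297 CPM in Sham_Veh3, each the highest of the Sham_Veh libraries, and Sham_Veh3 also had the highest adipocyte marker sum of all 16 libraries, 30979 CPM. The part of that sum was not tested.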

How the results depend on the processing

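Over 1320 values of the 8 genes under the alternatives, 27 moved by more than 1 SD and 54 took the opposite sign, 3 of these with a size over 0.5 in the edgeR fit as reported (Gys2 for SHU9119 in sDVX mice). Counts of called genes are given for the 8 genes too, as a description, since they were chosen with results of these libraries known. Counts over all 16682 genes under the same setting stand in brackets. For SHU9119 in sham mice, edgeR called 0 of the 8 glycogen genes and 0 of the other pathway genes (19). These became 4 and 4 with DESeq2 (1178), 5 and 9 with limma-voom (3874), and 0 to 3 and 0 to 2 without a library (0 to 982). For sDVX under SHU9119, limma-voom called 1 and 2 (779). For SHU9119 averaged over surgeries, the counts were 1 (Gys2) and 1 (Ppp1r3d), also with DESeq2 size factors and without the filter. They became 4 and 6 with DESeq2 (2781) and 4 and 8 with limma-voom (3899). Without the 6 libraries with epididymis or testis markers they became 4 and 5 (4062). With marker covariates they became 0 and 0 (0), and without a library 0 to 3 and 0 to 4 (3 to 1612). The Gys2 call was lost in 11 of the 16 fits without 1 library. The other counts for the 8 genes and the pathway genes were 0.

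Over all genes, 19 calls for SHU9119 in sham mice became 14 without the filter, 1178 with DESeq2, 3874 with limma-voom, 1 with only those groups, 1 with covariates, 0 without the 6 libraries and 0 to 982 without a library. The 312 for SHU9119 averaged over surgeries became 393 with size factors, 167 without the filter, 2781 with DESeq2, 3899 with limma-voom, 4062 without the 6 libraries, 0 with covariates and 3 to 1612 without a library. For SHU9119 in sDVX mice, 1 became 47 with DESeq2, 20 with limma-voom, 0 to 1 without a library and 0 under the other alternatives. The 0 for sDVX under vehicle, sDVX under SHU9119, the interaction and sDVX averaged over infusions became 8, 93, 8 and 409 with DESeq2 and 4, 779, 13 and 112 with limma-voom. The cause was not tested. With the replicate number as a block, 0 of the 8 genes, 0 pathway genes and 0 of all genes were called in every comparison, and Gys2 was 2.71 in sham mice and 1.58 averaged over surgeries. Deviations of same-numbered libraries from their group means had correlations of mixed sign (−0.69 to 0.68, 13 of 24 over 0.1). Of the 16 libraries, 5 were closest to their own number. A pairing by number is neither shown nor excluded by these values, since marker content also differed between libraries of a group.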

Other observations

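Phkg2, a catalytic subunit of phosphorylase kinase known from testis and liver, was singled out after its values were seen. It stood at 62.7 CPM in Sham_Veh4 and 32.2 CPM in Sham_SHU3, the libraries with testis and sperm marker sums of 2673 and 1270 CPM, and at 9.04 to 13.9 CPM in the other 14 libraries. Phkg2 shared 876 exon bases with Ccdc189 on the opposite strand. Without a stated strand setting, reads of these genes cannot be told apart there.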
